A study of Saccharomyces cerevisiae with 8 samples.

Results

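Baker's yeast takes up glucose and other hexoses through a large family of plasma membrane transporters encoded by the HXT genes, and it reads the amount of glucose outside the cell through a pair of transporter-like sensors, Snf3 and Rgt2. Described here are 10 of these genes out of 6713 targets in the deposited tables, chosen by gene identifier: the transporter genes HXT1 to HXT7 and HXT10, and the sensor genes SNF3 and RGT2. In the textbook scheme, the sensors send glucose signals through their long cytoplasmic tails to the corepressors Mth1 and Std1. Loss of these corepressors takes the repressor Rgt1 off HXT promoters, while the repressor Mig1 shuts off genes for high-affinity uptake when glucose is plentiful. Low-affinity carriers such as Hxt1 and Hxt3 serve cells in rich glucose, high-affinity carriers such as Hxt2, Hxt6 and Hxt7 serve cells short of it, and Hxt5 is known from slowly growing and starved cells.

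The data are poly(A) RNA of BY4743, a diploid laboratory strain of wild-type genotype per the labels, in 8 libraries that form 4 groups of 2. Untreated cells carry [SMAUG+], a natural prion of the RNA-binding protein Vts1, and are called prion; cells from which this prion was removed by selective curing are called cured. Cultures of 10 ml were grown for 48 h to saturation in preSPO medium, of which 5 ml was taken at once (preSPO) and 5 ml was taken after 14 h in SPO, the sporulation medium. No other allele, transgene or agent is named in the labels, the sugar content of the media is not given there, and the overexpression and deletion strains of the series' design text have no sample here. Replicates are separate samples by the labels alone, so p-values measure the spread between these samples, which may be technical.

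Estimated counts summed to between 4650288 and 71684771 per library, and all 10 genes passed the filter on low counts that left 6346 genes for testing. HXT10 passed it only through SPO medium, so its difference between media was in part fixed by the filter; it is given as levels, and counts of genes called between media are given over the other 9. As a check of the medium, of 9 sporulation genes 6 rose and 1 fell in SPO medium by the edgeR test, where 34.2% of all genes were called higher and 34.0% lower. IME1, the inducer of meiosis, rose by 3.00 on the log2 scale, while IME2, a meiotic kinase gene also called higher, stood at -0.14 on log2(TPM + 1). The summed level of these 9 genes was between 42.1 and 53.5 TPM in preSPO and between 366 and 1068 TPM in SPO libraries. Most of the SPO sum was SPS100, a spore wall gene, at 317 to 996 TPM against 3.74 to 4.80 TPM in preSPO; the other 8 genes summed to between 38.0 and 49.6 TPM in preSPO and between 49.5 and 106 TPM in SPO libraries, which overlap. Their part in the results was not tested. Of 6 haploid-specific genes 4 were tested and 3 were called higher, STE3 by 1.48, HO by 1.95 and STE6 by 0.49 on the log2 scale. STE6 stood at -0.21 on log2(TPM + 1). The 6 genes had a summed level between 9.52 and 19.4 TPM. Not tested were MFA1, a mating pheromone gene with 0 counts in every library, and MFA2, with between 0 and 12 counts. MET17, a gene of which BY4743 carries 1 deleted copy, had 3207 and 3867 counts under the prion label against 0 and 1 under the cured label in preSPO medium. Its SPO counts were 1363 and 1 under the prion label against 447 and 13 under the cured label, which sets prion SPO replicate 2 and cured SPO replicate 1 apart from the pattern of their labels. Prion and cured below always mean the labels. Without this pair, 1 SPO library is left in each state, so the spread in those fits comes from the preSPO libraries. The median log2 change was then 0.84 over the 9 sporulation genes and 0.92 over the 4 haploid-specific genes tested. With all libraries it was 0.82 and 0.98. In bulk RNA, fewer cells that express a gene and less RNA per cell cannot be told apart.

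The coding sequences set how well each gene could be counted. On the 31-base words that kallisto's default index uses, taken here from the R64 genome, HXT10, SNF3 and RGT2 shared none with any other coding sequence, and HXT2, HXT5, HXT4 and HXT1 kept 99.6%, 94.3%, 93.0% and 90.4% of words to themselves. HXT3 kept 77.2%, most of the remainder being shared with both HXT6 and HXT7. HXT6 (chromosome IV, 1159608 to 1161320, minus strand, R64) and HXT7 (chromosome IV, 1154216 to 1155928, minus strand) were identical at 1710 of 1713 coding bases and kept only 4.34% of words each. The 3 differing bases all lie in the last 82 coding bases, so nearly all evidence for telling the copies apart comes from reads there. The stretch from coding base 1621 to 1690, read 5′ to 3′ on the coding strand, is shown because the split between these genes rests on it, with the differing bases in capitals (from HXT6 to HXT7, T1632C, G1666A and T1677C, counted from the A of the start codon as base 1).
HXT6 (chrIV:1159631-1159700): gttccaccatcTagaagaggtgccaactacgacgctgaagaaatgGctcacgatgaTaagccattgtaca
HXT7 (chrIV:1154239-1154308): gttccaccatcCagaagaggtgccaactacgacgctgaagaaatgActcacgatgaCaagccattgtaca

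The main change was between the media. In preSPO medium the low-affinity gene HXT3 led the transporters, and in SPO medium HXT5 led them. Levels between genes are given in TPM, the authors' relative abundance after a correction for gene length. Levels of the same gene between groups are tested on counts scaled by TMM, a factor per library that lines up the bulk of genes, and given as CPM, the count as a share of the library on that scale. Of the 9 genes other than HXT10, 5 fell (HXT1, HXT2, HXT3, HXT4 and HXT7), 3 rose (HXT5, SNF3 and RGT2) and HXT6 was not called, by the edgeR quasi-likelihood test of the mean change over the states with Benjamini-Hochberg adjusted p under 0.05. Over all genes 34.0% were called lower and 34.2% higher, so that 68.2% were called at all. The 9 genes had a median log2 change of -2.59, against 0.02 over all genes. Libraries of the media did not overlap in CPM for 7 of the 9, against 58.7% of all genes. Without prion SPO replicate 2 and cured SPO replicate 1 together, 2 rose and 5 fell, where 55.2% of all genes were called.

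**Figure D1:**
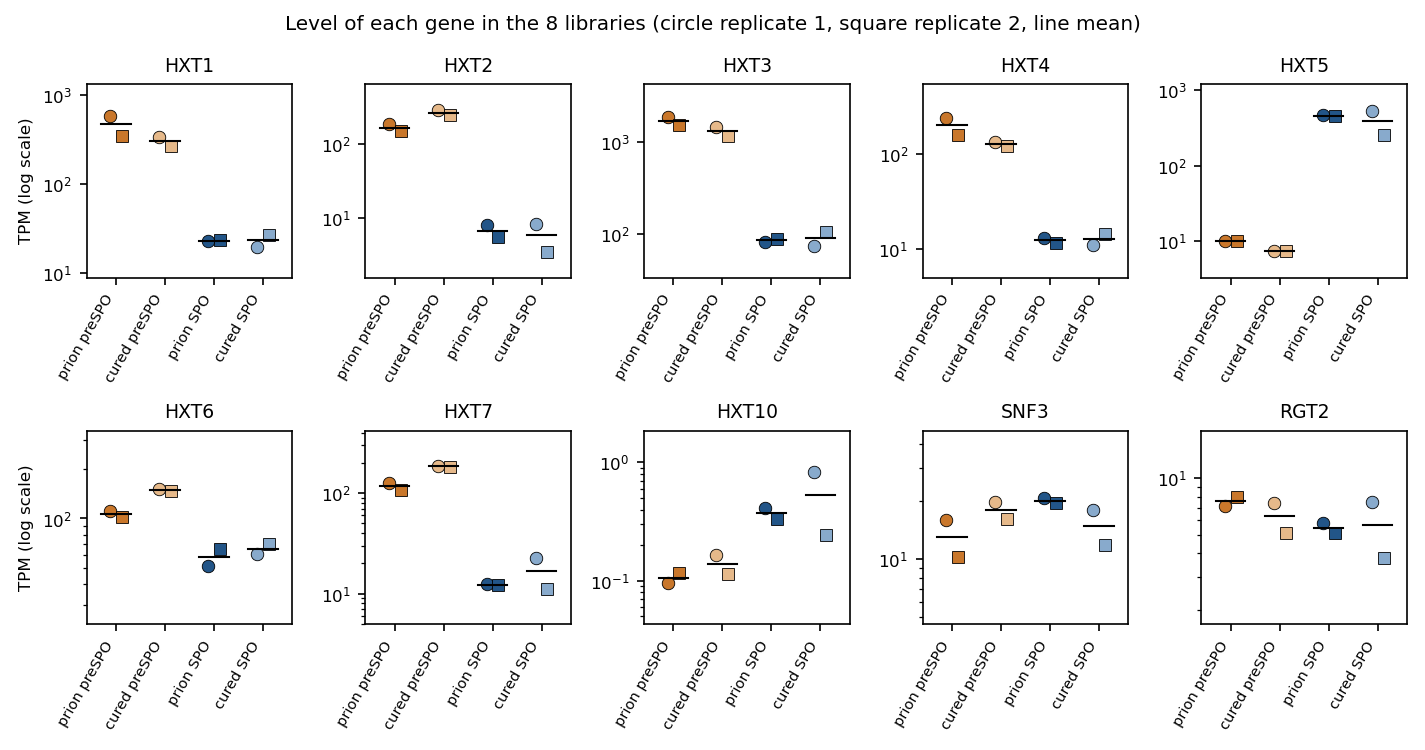
TPM of each gene on a log axis whose range differs between panels, by group, with circles for replicate 1, squares for replicate 2 and a line at the mean of 2 libraries. HXT1 to HXT4, HXT6 and HXT7 are lower in all 4 SPO libraries than in any preSPO library, HXT5 and HXT10 are higher, and SNF3 and RGT2 overlap between media on this scale.

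Among the low-affinity genes, HXT3 (YDR345C) stood at 1882 and 1513 TPM for prion and 1468 and 1156 TPM for cured cells in preSPO medium, and at 81.6 and 87.9 TPM for prion and 73.9 and 103 TPM for cured cells in SPO medium. Every preSPO library was far above every SPO library. The edgeR log2 change from preSPO to SPO was -3.69 (SE 0.395, Benjamini-Hochberg adjusted p = 0.000137) in prion and -2.81 (SE 0.380, adjusted p = 0.000412) in cured, a fall of 12.9-fold and 7.00-fold. HXT1 (YHR094C) stood at 585 and 346 TPM for prion and 333 and 269 TPM for cured cells in preSPO medium, and at 22.5 and 23.4 TPM for prion and 19.7 and 26.9 TPM for cured cells in SPO medium. It fell 12.8-fold in prion (log2 -3.68, SE 0.367) and 6.10-fold in cured (log2 -2.61, SE 0.351), with edgeR Benjamini-Hochberg adjusted p = 9.79e-05 and 0.000398. HXT4 (YHR092C), a carrier of intermediate affinity, followed the same course, at 244 and 159 TPM for prion and 135 and 120.5 TPM for cured cells in preSPO medium, and at 13.0 and 11.3 TPM for prion and 11.0 and 14.4 TPM for cured cells in SPO medium. Its fall was 10.6-fold in prion (log2 -3.40, SE 0.320) and 4.76-fold in cured (log2 -2.25, SE 0.305; edgeR Benjamini-Hochberg adjusted p = 7.73e-05 and 0.000412).

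Cured SPO replicate 2, the deepest library, held the highest SPO value of all 3 of these genes, at 725 CPM against 339.9 CPM in replicate 1 for HXT3, 190 against 91.2 CPM for HXT1 and 103 against 51.5 CPM for HXT4. Without it the log2 change in cured libraries was -3.47 for HXT3, -3.25 for HXT1 and -2.86 for HXT4. The falls were then over 1.5 times as large, with 1 cured SPO library left. Leaving out prion SPO replicate 2 and cured SPO replicate 1 together keeps 1 SPO library a state, in cured the deepest one. The log2 change was then -3.86 in prion and -2.37 in cured for HXT3, -3.83 and -2.19 for HXT1, and -3.42 and -1.86 for HXT4.

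HXT2 (YMR011W), a high-affinity carrier, fell in both states. It stood at 184 and 147 TPM for prion and 282 and 246 TPM for cured cells in preSPO medium, and at 8.05 and 5.55 TPM for prion and 8.36 and 3.53 TPM for cured cells in SPO medium. The groups of the 2 media were far apart, and the fall was 15.9-fold in prion (log2 -3.99, SE 0.263) and 24.3-fold in cured (log2 -4.60, SE 0.272; edgeR Benjamini-Hochberg adjusted p = 1.50e-05 and 1.02e-05). Without the pair of SPO libraries that stand apart by MET17 the log2 change was -3.84 in prion, close to -3.86 for HXT3 and -3.83 for HXT1, and -4.93 in cured.

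**Figure D2:**
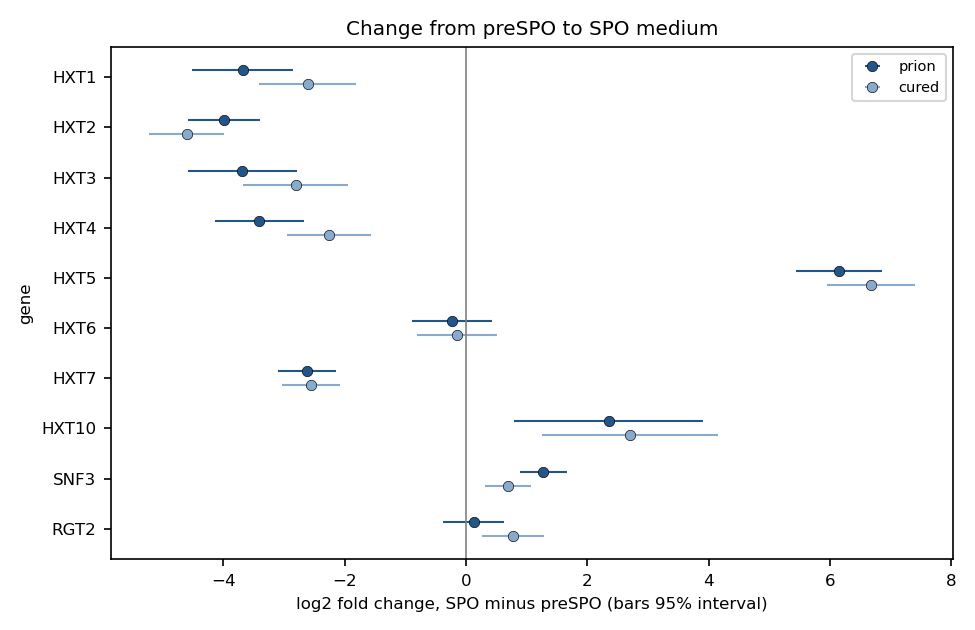
Log2 fold change of each gene from preSPO to SPO medium in prion and cured libraries (2 libraries a group), with bars for the 95% interval of the edgeR estimate. HXT5 lies at 6.15 and 6.67, HXT1 to HXT4 and HXT7 lie between -4.60 and -2.25, and the HXT6 intervals include 0. HXT10 is drawn as well, but it passed the filter only through SPO medium, so its bars are not read as a test.

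HXT5 (YHR096C), a carrier of moderate affinity, moved the other way and by the largest amount. It stood at 9.95 and 9.93 TPM for prion and 7.19 and 7.27 TPM for cured cells in preSPO medium, and at 467 and 457 TPM for prion and 535 and 255 TPM for cured cells in SPO medium. All 4 SPO libraries were above all 4 preSPO libraries, and the low TPM of cured SPO replicate 2 was less apart in CPM, at 1874 against 2583 CPM in replicate 1. The rise was 71.0-fold in prion (log2 6.15, SE 0.311) and 102-fold in cured (log2 6.67, SE 0.319; edgeR Benjamini-Hochberg adjusted p = 4.41e-06 and 3.65e-06). Left without the SPO libraries that stand apart by MET17, it was 6.05 and 6.42 on the log2 scale. HXT5 and HXT1 share 100 of their 31-base words, 5.72% of those of HXT5.

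Together these changes turned over the make-up of the transporter mRNA. The summed level of the 8 HXT genes was between 2130 and 3141 TPM in preSPO libraries and between 484 and 733 TPM in SPO libraries. On log2(TPM + 1) the median change of all genes over the states was -0.72, so these sums do not measure the fall on the TMM scale. HXT3 made up 54.3% to 63.4% of that sum in preSPO and 10.1% to 21.4% in SPO. HXT5 made up 0.281% to 0.416% in preSPO and 52.7% to 73.1% in SPO, the lowest of these SPO shares being that of cured SPO replicate 2. HXT1 went from between 12.6% and 18.6% to between 2.69% and 5.56%. HXT6 went from between 3.53% and 6.91% to between 7.84% and 14.4%, and HXT7 from between 3.99% and 8.60% to between 1.84% and 3.06%. The shares of HXT6 and HXT7 rest on how reads were split between them, so the rise of HXT6 taken singly is uncertain.

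**Figure D3:**
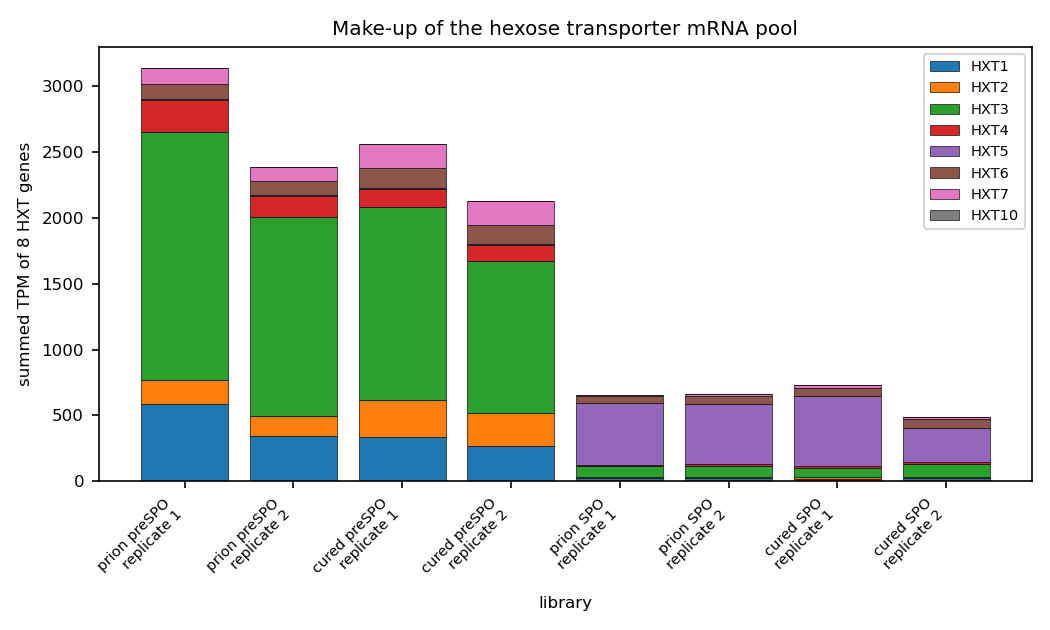
Summed TPM of the 8 HXT genes in each library as stacked bars, 1 bar per library, coloured by gene. HXT3 fills most of the preSPO bars and HXT5 most of the SPO bars, while the SPO bars are at most 733 TPM high and the preSPO bars at least 2130 TPM. Heights are on the TPM scale, where the median change of all genes was -0.72 on log2(TPM + 1).

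Within each group the order of levels was clear at the top. HXT3 and HXT1 were first and second in prion preSPO, followed by HXT4 and HXT2, whose libraries overlapped, and by HXT7 and HXT6, whose libraries overlapped too. In cured preSPO, HXT1 and HXT2 overlapped behind HXT3, followed by HXT7, HXT6 and HXT4 without overlap. SNF3 came next in both preSPO groups, above HXT5 and RGT2, and HXT10 was last. Both SPO groups had HXT5, HXT3, HXT6 and HXT1 in that order, with no overlap among these 4. Behind them, HXT7 and HXT4 overlapped in prion SPO, as did HXT2 and RGT2, and in cured SPO the neighbours from HXT1 through HXT7 and SNF3 to HXT4 overlapped pair by pair.

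HXT6 and HXT7 encode near-identical high-affinity carriers, and the deposited estimates assigned them different courses. HXT7 (YDR342C) stood at 125 and 109 TPM for prion and 186 and 183 TPM for cured cells in preSPO medium, and at 12.4 and 12.2 TPM for prion and 22.4 and 11.1 TPM for cured cells in SPO medium. It fell 6.15-fold in prion (log2 -2.62, SE 0.212) and 5.89-fold in cured (log2 -2.56, SE 0.211; edgeR Benjamini-Hochberg adjusted p = 3.67e-05 and 3.82e-05), and by 2.73 and by 2.78 on the log2 scale without the pair of SPO libraries. HXT6 (YDR343C) stood at 111 and 102 TPM for prion and 151 and 147 TPM for cured cells in preSPO medium, and at 51.4 and 65.0 TPM for prion and 60.9 and 69.7 TPM for cured cells in SPO medium. In CPM it was 308 and 350.3 for prion and 401 and 458 for cured cells in preSPO medium, and 228 and 332 for prion and 282 and 491 for cured cells in SPO medium, so that the media overlapped. Its edgeR log2 change was -0.23 (95% interval -0.89 to 0.43, adjusted p = 0.521) in prion and -0.15 (-0.81 to 0.51, adjusted p = 0.676, both Benjamini-Hochberg), so that no change was called on the count scale. It was -0.54 in prion and 0.19 in cured without the pair of SPO libraries, neither called. On log2(TPM + 1) HXT6 was called lower, at -1.02 for the mean over the states (limma-trend Benjamini-Hochberg adjusted p = 3.14e-05), where the median of all genes was -0.72; relative to that median it was -0.30. Scaled by library size alone it was called too, at -0.50 (edgeR Benjamini-Hochberg adjusted p = 0.0236), where the median was -0.27.

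The share of HXT6 in the estimated counts of both copies was 46.9% and 48.3% for prion and 44.7% and 44.5% for cured cells in preSPO medium, and 80.6% and 84.2% for prion and 73.1% and 86.3% for cured cells in SPO medium. No preSPO library reached the share of any SPO library. The mean was 46.1% ± 1.83 (SD, n = 4) in preSPO and 81.0% ± 5.79 (SD, n = 4) in SPO, a difference of 34.9 percentage points. A two-sided exact permutation test, chosen after the values were seen, gave p = 0.0286, the smallest its 70 arrangements can give. Its arrangements ignore the state and the pairing of preSPO and SPO libraries by culture, so it does not test the paired design. The difference was between 33.2 and 37.5 points without any 1 library, and 37.3 points without the pair of SPO libraries. The sum of both copies does not depend on how reads were split between them. It still depends on the split with HXT3, which shares 17.9% of the words of each copy with both copies alone. The sum stood at 236 and 210.2 TPM for prion and 337 and 330.3 TPM for cured cells in preSPO medium. In SPO medium it stood at 63.8 and 77.2 TPM for prion and 83.4 and 80.7 TPM for cured cells. Counted as 1 feature, the sum fell 2.04-fold in prion (log2 -1.03, SE 0.260) and 2.02-fold in cured (log2 -1.01, SE 0.260; edgeR Benjamini-Hochberg adjusted p = 0.00994 and 0.00975). With that pair left out, the log2 change of the sum was -1.29 in prion (edgeR Benjamini-Hochberg adjusted p = 0.0182) and -0.76 in cured, the latter no longer called (adjusted p = 0.0900). Because the split rests on the 3 bases printed above, the values of HXT6 and HXT7 taken singly are uncertain in a way that the spread between libraries does not cover.

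**Figure D4:**
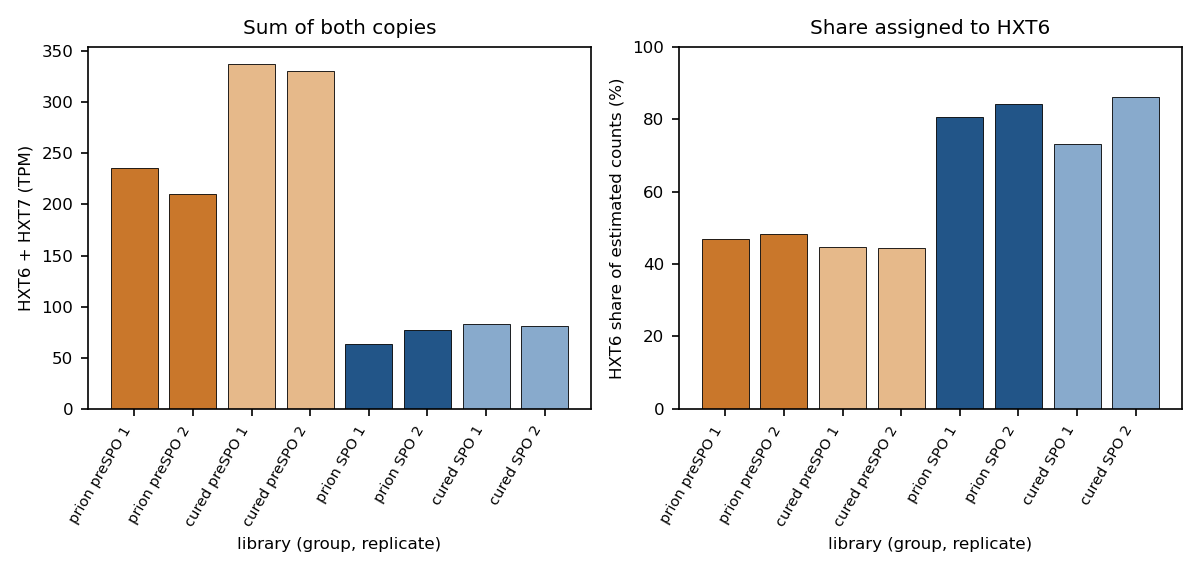
Left, summed TPM of HXT6 and HXT7 per library; right, percent of the estimated counts of both genes that was assigned to HXT6, 1 bar per library. The sum is between 210.2 and 337 TPM in preSPO and between 63.8 and 83.4 TPM in SPO, and the HXT6 share is at most 48.3% in preSPO and at least 73.1% in SPO.

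HXT10 (YFL011W), a little-studied member of the family, was rare in every library. It had 2 and 4 counts for prion and 3 and 8 for cured cells in preSPO medium, and 17 and 23 for prion and 16 and 90 for cured cells in SPO medium, or between 0.0964 and 0.164 TPM in preSPO and between 0.246 and 0.822 TPM in SPO. Over all libraries of a medium the rate in SPO was 5.11 times that in preSPO, and 90 of the 146 SPO counts came from cured SPO replicate 2. The rate in SPO was 5.12 times that in preSPO in prion and 5.05 times in cured. Since no preSPO library reached the level of the filter, no test is given. On log2(TPM + 1) its change over the states was 0.36.

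The sensor genes were low in all libraries. SNF3 (YDL194W), the sensor for low glucose, stood at 71.1 and 56.8 CPM for prion and 84.3 and 81.3 CPM for cured cells in preSPO medium, and at 148 and 161 CPM for prion and 134 and 133 CPM for cured cells in SPO medium. On this scale all SPO libraries were above all preSPO libraries, and SNF3 rose 2.42-fold in prion (log2 1.27, SE 0.170) and 1.62-fold in cured (log2 0.69, SE 0.168; edgeR Benjamini-Hochberg adjusted p = 0.000398 and 0.00738). In TPM it was 15.9 and 10.3 for prion and 19.7 and 16.2 for cured cells in preSPO medium, and 20.8 and 19.6 for prion and 18.1 and 11.8 for cured cells in SPO medium, and the media overlapped. On log2(TPM + 1) the cured change was -0.28, the mean over the states 0.17 and not called (limma-trend Benjamini-Hochberg adjusted p = 0.557), and that mean was 0.89 above the median of all genes. Without the pair of SPO libraries the log2 change was 1.20 in prion and 0.68 in cured, the latter no longer called (edgeR Benjamini-Hochberg adjusted p = 0.0659). Scaled by library size alone the cured change was 0.30 and not called (edgeR adjusted p = 0.278).

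RGT2 (YDL138W), the sensor for high glucose, stood at 27.4 and 37.8 CPM for prion and 27.1 and 21.9 CPM for cured cells in preSPO medium, and at 35.4 and 35.9 CPM for prion and 47.6 and 36.3 CPM for cured cells in SPO medium. Prion libraries of the media overlapped and cured ones did not. Its log2 change was 0.13 (SE 0.222, edgeR Benjamini-Hochberg adjusted p = 0.650) in prion and 0.77 (SE 0.224, adjusted p = 0.0172) in cured. For the mean over the states it was 0.45 (adjusted p = 0.0310, edgeR), a call that was lost without any 1 of 5 libraries and that turned to -0.29 on log2(TPM + 1), which is 0.43 above the median of all genes there. Without the pair of SPO libraries that stand apart by MET17 the prion change was 0.11 and the cured change 0.57 (adjusted p = 0.147, edgeR). The cured call was also lost without cured SPO replicate 1 alone (0.57, adjusted p = 0.0836, edgeR) and without cured preSPO replicate 2 (0.61, adjusted p = 0.116, edgeR). Scaled by library size alone, neither it (0.39) nor the mean (0.17) was called.

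In each state alone, 7 of the 9 genes other than HXT10 were called between media in prion (2 higher, 5 lower), where 53.3% of all genes were (26.2% higher, 27.1% lower). In cured it was 8 (3 higher, 5 lower), where 57.2% of all genes were (28.6% in each direction). Libraries of the media did not overlap for 7 genes in prion and 8 in cured, against 80.6% and 78.6% of all genes. Without the pair of SPO libraries the numbers called were 7 and 6, where 34.0% and 41.0% of all genes tested were called. HXT1, HXT2, HXT3, HXT4, HXT5 and HXT7 were called in both states under every setting tried.

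The second comparison was between the states. None of the 10 genes was called between cured and prion in preSPO medium by edgeR or by DESeq2. Over all genes edgeR called 59 (0.930%) and DESeq2 441. At an unadjusted edgeR p under 0.05 were 3 of the 10 (HXT2, HXT4 and HXT7), as were 1264 of all 6346 genes. The low- and intermediate-affinity genes, HXT5 and RGT2 stood lower in each cured library than in any prion one, and HXT2, HXT6, HXT7 and SNF3 stood higher in both. Libraries of the states did not overlap for 9 of the 10 genes, where 46.9% of all genes did not.

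HXT4 had 687 and 555 CPM in prion and 363 and 380 CPM in cured preSPO, which put cured minus prion at -0.74 on the log2 scale (95% interval -1.40 to -0.08, edgeR Benjamini-Hochberg adjusted p = 0.216). HXT1 had 1628 and 1194 CPM in prion and 885 and 839 CPM in cured, a difference of -0.71 (-1.46 to 0.04, adjusted p = 0.274, edgeR). These genes were close between cured replicates and further apart between prion replicates. HXT3 was at 5208 and 5185 CPM in prion and 3881 and 3580 CPM in cured (log2 -0.48, -1.29 to 0.33), HXT5 at 28.9 and 35.7 CPM against 19.9 and 23.6 CPM (-0.56, -1.15 to 0.02), and RGT2 at -0.42 (-0.93 to 0.09).

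On the other side, HXT2 had 484 and 478 CPM in prion and 707 and 724 CPM in cured preSPO, a log2 difference of 0.57 (95% interval 0.04 to 1.10, edgeR Benjamini-Hochberg adjusted p = 0.226). HXT7 had 349 and 374 CPM in prion and 496 and 571 CPM in cured, a difference of 0.56 (0.11 to 1.01, adjusted p = 0.182, edgeR). HXT6 differed by 0.38 (-0.28 to 1.04), SNF3 by 0.37 (-0.01 to 0.75) and HXT10, at 8 counts or fewer in each library, by 0.15 (-1.65 to 1.95). The sum of HXT6 and HXT7 differed by 0.48 (SE 0.258, adjusted p = 0.337, edgeR Benjamini-Hochberg). The cured preSPO libraries are also those with 0 and 1 counts of MET17, and the part of that difference in these values was not tested.

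**Figure D5:**
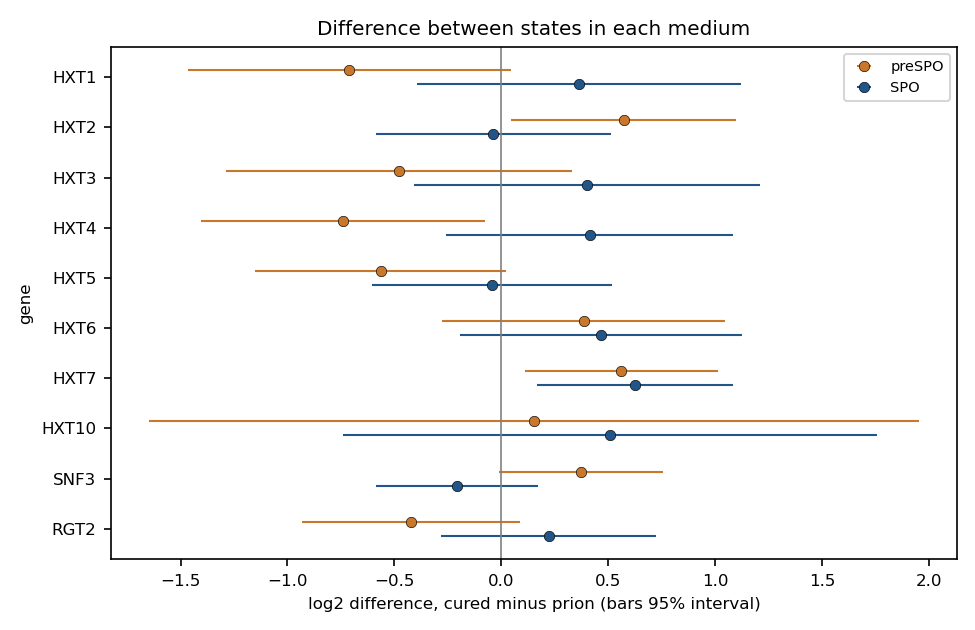
Log2 difference of cured minus prion for each gene in preSPO and in SPO medium (2 libraries a group), with bars for the 95% interval of the edgeR estimate. In preSPO medium HXT1, HXT3, HXT4, HXT5 and RGT2 lie below 0 and the other genes above it, and no difference is called in either medium.

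In SPO medium none of the 10 genes was called between the states by edgeR or DESeq2. Over all genes edgeR called 2 (0.0315%) and DESeq2 15. HXT7 alone was at an unadjusted edgeR p under 0.05, as were 154 of all 6346 genes. HXT7 had 55.0 and 62.4 CPM in prion and 104 and 78.0 CPM in cured SPO, a log2 difference of 0.62 (95% interval 0.16 to 1.08, edgeR Benjamini-Hochberg adjusted p = 1). Without prion SPO replicate 2 and cured SPO replicate 1, which leaves 1 library against 1, it was 0.51. HXT1, HXT3 and HXT4 had differences of 0.36, 0.40 and 0.41, which were 0.93, 1.01 and 0.81 without that pair and -0.28, -0.25 and -0.19 without cured SPO replicate 2. HXT5 had -0.04 (-0.61 to 0.52) and HXT2 -0.04 (-0.59 to 0.51), which were -0.20 and -0.52 without the pair, as HXT6 was 1.11, SNF3 -0.15 and RGT2 0.042, none of them called. Libraries of the states did not overlap for 3 of the 10 genes (HXT7, SNF3 and RGT2), against 32.3% of all genes.

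The interaction is the change of medium in cured minus that in prion. It was not called for any of the 10 genes by edgeR or DESeq2. Over all genes edgeR called 1 (0.0158%) and DESeq2 133. At an unadjusted edgeR p under 0.05 were 3 of the 10 (HXT1, HXT4 and SNF3), as were 791 of all 6346 genes. HXT4 had 1.15 on the log2 scale (95% interval 0.21 to 2.10, edgeR Benjamini-Hochberg adjusted p = 0.323), HXT1 1.07 (0.01 to 2.14, adjusted p = 0.396) and SNF3 -0.58 (-1.12 to -0.04, adjusted p = 0.368). Without the pair of SPO libraries they were 1.56, 1.64 and -0.52. HXT6 and HXT7 had 0.08 and 0.06.

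Genes of the pathway around the transporters, in lists chosen with earlier results of these data known, were compared between the media in the same fit (mean change over the states, with 34.2% of all genes called higher and 34.0% lower). Median changes without prion SPO replicate 2 and cured SPO replicate 1 were added after the data were seen. In the arm that controls Rgt1, 2 of 8 genes rose and 4 fell, with a median log2 change of -0.31, or -0.34 without that pair. The corepressor genes MTH1 and STD1 fell 6.04-fold (log2 -2.59, SE 0.135) and 3.99-fold. YCK2, a casein kinase of the sensors' signal, fell by 1.51, while its paralog YCK1 rose by 0.95. RGT1 itself, named after its value was seen, rose by 1.07.

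Of the 13 genes of the Snf1 and Mig1 arm, 1 rose and 8 fell (median -0.63, or -0.71 without the pair). MIG2 and MIG1, zinc finger repressors of glucose-repressed genes, fell by 2.50 (SE 0.145) and by 2.15 (SE 0.184) on the log2 scale, and TOS3, a kinase that activates Snf1, fell by 1.25. SIP2, a beta subunit of the Snf1 kinase, rose by 2.24. Among 5 activators of genes for other carbon sources 4 rose and 0 fell (median 2.14, or 2.06 without the pair). SIP4 rose by 3.32, ADR1 by 2.68, CAT8 by 2.14 and RDS2 by 0.85. In cured libraries alone RDS2 was at -0.21 on log2(TPM + 1).

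Listed too were 8 genes for the ubiquitin ligase Rsp5, its adaptors and a deubiquitinase, which act in the internalisation of plasma membrane transporters. Of these, 2 rose and 3 fell (median 0.26, or 0.20 without the pair, where ECM21 was not called). CSR2, an adaptor of the alpha-arrestin family, rose by 2.94 (SE 0.140), BUL1 and BUL2 fell by 1.39 and by 1.30 and ROD1 by 0.64. ECM21, named after its value was seen, rose by 0.47, a direction that turned on log2(TPM + 1) with -0.32. Between the states edgeR called none of the genes of these lists in either medium. Over all genes it called 0.930% in preSPO and 0.0315% in SPO medium.

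Of the 10 remaining hexose transporter genes of the list, 9 passed the filter, HXT9 and HXT14 only through SPO medium. Of the other 7, 4 rose and 0 fell between media (median 0.68, or 0.52 without the pair, where GAL2 was not called). The 10 genes were rare, with a summed level between 9.58 and 21.5 TPM in any library. HXT9 stood between 0.640 and 0.865 CPM in preSPO and between 6.95 and 8.70 CPM in SPO libraries, and HXT14 between 0.554 and 1.35 CPM and between 1.59 and 2.38 CPM, and no test is given for either. HXT11 rose by 2.42 (SE 0.277), HXT12 by 1.54 and HXT15 by 1.51 on the log2 scale. HXT9 and HXT11 keep 34.8% of their words apart from each other and HXT15 3.46%, so their single values are uncertain, and HXT12 is annotated as a pseudogene. GAL2, the galactose carrier, also named after its value was seen, was called higher with 0.68 and stood at -0.06 on log2(TPM + 1). Of 5 transporters of other sugars and glycerol 3 rose and 0 fell (median 0.52, or 0.47 without the pair). STL1, a glycerol carrier, rose by 2.69 (SE 0.228), MAL11 by 0.95 and MAL31 by 0.51. MAL31 was at -0.26 on log2(TPM + 1) and was not called without the pair.

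The upstream DNA of the genes that changed most was read from the R64 genome, from 550 to 251 bases before the start codon, a window chosen after matches in the members had been seen. The shares of windows given below therefore describe this window and do not measure how rare the members' matches are. Searched on both strands were CGGANNA, the motif of Rgt1; AGGGG, the stress response element bound by Msn2 and Msn4; and CCGGGG or CTGGGG or GCGGGG or GTGGGG, the core of the Mig1 motif, which differs from AGGGG in the base before the run of G. HXT3 had 7 matches of CGGANNA, and no other of the 6006 windows of this length held as many. HXT1 and HXT5 had 3 each, and 1.07% of windows had 3 or more. HXT2 and HXT4 had 2 each, and 5.23% of windows had 2 or more. HXT7, HXT10, SNF3 and RGT2 had 0, where 29.3% of windows had 1 or more. The HXT1 and HXT3 windows are shown as those of the low-affinity genes that fell, 5′ to 3′ on the coding strand, with CGGANNA or its reverse complement in capitals.
HXT1 (chrVIII:292876-293175, minus strand): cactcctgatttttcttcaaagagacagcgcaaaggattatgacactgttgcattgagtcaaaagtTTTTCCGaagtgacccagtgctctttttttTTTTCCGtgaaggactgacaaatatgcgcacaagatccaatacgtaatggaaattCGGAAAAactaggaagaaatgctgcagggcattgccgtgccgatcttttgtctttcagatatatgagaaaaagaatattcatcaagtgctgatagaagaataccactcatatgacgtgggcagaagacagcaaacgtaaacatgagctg
HXT3 (chrIV:1164911-1165210, minus strand): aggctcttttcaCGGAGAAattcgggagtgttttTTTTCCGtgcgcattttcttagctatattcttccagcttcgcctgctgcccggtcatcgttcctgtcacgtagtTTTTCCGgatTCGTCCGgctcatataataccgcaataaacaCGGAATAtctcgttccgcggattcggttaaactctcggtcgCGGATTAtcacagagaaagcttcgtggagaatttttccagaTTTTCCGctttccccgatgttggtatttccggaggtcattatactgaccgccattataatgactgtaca

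For AGGGG, HXT5 had 2 matches, and 3.66% of windows had 2 or more; HXT4, HXT7, HXT10 and RGT2 had 1 each, where 22.9% of windows had 1 or more. HXT2 and HXT4 had 2 matches of the Mig1 core, and 2.28% of windows had 2 or more. HXT7, HXT10 and SNF3 had 1 and HXT1, HXT3, HXT5 and RGT2 had 0, where 17.4% of windows had 1 or more. The windows of HXT5, the gene that rose most, and of HXT7, a high-affinity gene that fell, are shown with AGGGG or its reverse complement in capitals. The order of the genes depends on the window: in the 1000 bases before the start codon HXT7 had 4 matches of AGGGG against 2 for HXT5, HXT1 and HXT3 had 8 and 9 of CGGANNA against 4 for HXT5 and 2 for HXT7, and HXT1, HXT3 and HXT7 had 2 each of the Mig1 core against 1 for HXT5 and 4 each for HXT2 and HXT4. A match describes letters in a window, and no binding was measured.
HXT5 (chrVIII:296698-296997, minus strand): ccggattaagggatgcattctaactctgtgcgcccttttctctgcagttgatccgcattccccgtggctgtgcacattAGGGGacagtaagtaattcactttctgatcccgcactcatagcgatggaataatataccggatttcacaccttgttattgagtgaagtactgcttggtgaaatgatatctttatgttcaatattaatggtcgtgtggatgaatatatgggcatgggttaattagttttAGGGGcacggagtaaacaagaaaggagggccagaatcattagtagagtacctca
HXT7 (chrIV:1156179-1156478, minus strand): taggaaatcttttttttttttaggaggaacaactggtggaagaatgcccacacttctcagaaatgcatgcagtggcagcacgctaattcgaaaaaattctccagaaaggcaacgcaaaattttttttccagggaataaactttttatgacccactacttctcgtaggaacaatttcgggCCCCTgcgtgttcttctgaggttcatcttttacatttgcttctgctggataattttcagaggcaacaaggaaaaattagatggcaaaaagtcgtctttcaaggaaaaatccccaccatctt

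Genes most like each member were sought by the root mean square difference of centred log2 CPM over the 8 libraries, among 5037 other genes with a mean of at least 10 CPM and a standard name. The closest were DAL3 to HXT1 (difference 0.25, Pearson r = 0.99) and to HXT4 (0.24, r = 0.99), PFK27 to HXT3 (0.24, r = 0.99) and DAL7 to HXT2 (0.43, r = 0.99). FAT3 was closest to HXT5 (0.27, r = 1.00), ADE12 to HXT7 (0.26, r = 0.98) and THI6 to HXT6 (0.12, r = 0.94). AGP2 was closest to HXT10 (0.19, r = 0.99), DFR1 to SNF3 (0.083, r = 0.99) and FMP27 to RGT2 (0.071, r = 0.98). These points share their libraries, and the difference between media sets most of each profile, so the correlations are descriptions.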

How the data were processed

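Poly(A) RNA of 8 libraries was used, 2 in each of 4 groups read from the sample titles. Per the submitters' processing notes, the authors ran kallisto against build R64; its version, index and strand setting were not given in the sources used here. The deposited estimated counts need not be whole and were rounded. The deposited TPM values are the authors' and carry no depth. Lengths are coding lengths (6711 of 6713 divisible by 3). Tests used edgeR 4.0.16 in R 4.3.3 (filterByExpr with a minimum count of 10, TMM, glmQLFit and glmQLFTest without robust estimation, group means, 4 residual degrees of freedom), with two-sided p-values adjusted by Benjamini-Hochberg over 6346 genes. SE is the log2 change divided by the root of F, and 95% intervals use the t quantile on 8.73 degrees of freedom (prior plus residual). Alternatives used DESeq2 1.42.0, limma 3.58.1 on log2 TPM (pseudocount 1 or 0.1), other scalings and left-out libraries. The test was checked on simulated counts. Libraries of a group differed beyond sampling noise (chi-square per degree of freedom at least 34.7). A letter in the sample descriptions shared by preSPO and SPO libraries of 1 state and number was read as 1 culture, and their deviations correlated at 0.07 in prion and 0.32 in cured. The members, lists, markers and naming rule (all 10 members, and up to 4 genes per list with the smallest p for the mean change of medium) were chosen with earlier results of these data known. Of the targets, 6026 matched the R64 symbol table (Biopython 1.88 aligned sequences), and the words of 6014 coding sequences were compared. No RefSeq gene overlaps a member. All columns used were mapped to samples. The upstream window of 1 member is not reported here.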

Additional observations from a re-analysis of the deposited data

How the results depend on the processing

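The medium calls of HXT1, HXT2, HXT3, HXT4, HXT5 and HXT7 kept their direction and side of the threshold under every alternative run. Of the 9 genes other than HXT10, the number called between media was 8 for the mean over the states, 7 in prion and 8 in cured. Over all genes 68.2%, 53.3% and 57.2% were called. SNF3 and RGT2 lost calls under some alternatives, as given above. Between the states and for the interaction, none of the 10 genes was called under any alternative. With the replicate block, by culture or by number, no call of a member changed. MET17 goes against the culture pairing of prion replicate 2 and cured replicate 1. The median change between media over all genes was 0.02 with TMM, -0.27 when scaled by library size and -0.72 for log2(TPM + 1) values. On log2 TPM (pseudocount 1, then 0.1) the direction turned for RGT2 over the states (-0.29, -0.34), in prion (-0.41, -0.47; -0.049 with library size scaling) and in cured (-0.18, -0.21), for SNF3 in cured (-0.28, -0.29) and for RGT2 between states in SPO (-0.021, -0.036). The interaction turned for HXT6 (-0.32, -0.32; library size scaling -0.16) and HXT7 (-0.32, -0.31; library size scaling -0.12). Without prion SPO replicate 2 and cured SPO replicate 1, it turned for the medium change of HXT6 in cured (0.19), HXT10 between states in SPO (-0.085) and the interactions of HXT7 (-0.050) and HXT10 (-0.24). Without 1 library, the lowest and highest values were -0.54 and 0.015 for HXT6 in prion, -0.62 and 0.19 for HXT6 in cured, -0.085 and 0.38 for RGT2 in prion, and -0.072 and 0.50 for HXT10 between states in preSPO. Between states in SPO they were -0.28 and 0.78 for HXT1, -0.36 and 0.27 for HXT2, -0.25 and 0.84 for HXT3, -0.19 and 0.81 for HXT4, -0.30 and 0.16 for HXT5, and -0.039 and 1.09 for HXT10. For the interaction they were -0.38 and 0.42 for HXT6, -0.15 and 0.26 for HXT7, and -0.19 and 0.94 for HXT10. The cause of these turns was not tested. Over all genes, edgeR called 59 between states in preSPO, against 441 by DESeq2, 94 on log2(TPM + 1), 142 with replicate number as a block and 10 without the pair (0 to 468 without 1 library). In SPO it called 2, against 15, 10, 3 and 10 (2 to 11), and 4 when scaled by library size. For the interaction it called 1, against 133 by DESeq2, 41 on log2(TPM + 1) and 0 with culture as a block (0 to 44). Between media in prion it called 3380, or 2192 without prion SPO replicate 2. Depth limits HXT10, with at most 8 counts in a preSPO library.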
